A study of Mus musculus with 32 samples.

Results

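The 7 regulators of gut identity described here were followed in monocytes before transfer and in cells sorted from the gut after transfer, namely Gata2, Gata4, Gata5, Gata6, Cdx1, Cdx2 and Hnf4a. They were taken by gene symbol, and all 7 were found among the 24148 symbols that the deposited tables share. Epcam, a membrane protein of epithelial cells, was read beside them in every library as a measure of epithelial RNA.

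GATA factors are zinc finger proteins that bind the DNA letters GATA. Gata4, Gata5 and Gata6 act in endoderm, with Gata4 marking the proximal small intestine, while Gata2 acts in blood progenitors, mast cells and endothelium, and Gata6 also in macrophages of the peritoneum. Cdx1 and Cdx2 are caudal type homeobox factors that set intestinal identity, and Hnf4a is a nuclear receptor of enterocytes, the absorptive cells of the gut lining.

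The study asked how monocytes that repopulate an emptied niche come to differ between colon and ileum. Ly6C+ monocytes (CD117- CD11b+ CD115+ GFPint) of Cx3cr1 gfp/+ CD45.1 mice were injected into chimeras of C57BL/6 background that carried CD11c-DTR bone marrow. Their progeny was sorted from both segments (CD45+ CD11b+ CD64+ Ly6C- MHCII+ by the labels). The study itself names CD45.1 and GFP as the sort markers of this progeny, and gives the gate of the labels for resident macrophages. Chimeras were made from irradiated mice 7 to 10 weeks old and received diphtheria toxin at 18 ng per gram of body weight before transfer and at 9 ng per gram afterwards, so that host cells without the transgene remained. The 25 libraries compared were the untreated graft (3), colon of days 4 (3), 8 (3) and 12 (4) and ileum of days 4, 8 and 12 (4 each), to which 6 colon libraries of CX3CR1-DTR recipients were added, dated to day 14 by the study alone. The methods state fewer repeats than there are libraries of these recipients, without naming them, and the labels do not say which ablated cells the recipients kept. For the graft the organ is blood in the labels and bone marrow in the methods. A further colon day 8 library (replicate 1) was not among those the study used and is outside all tests except where it is named. Nothing states whether a library is 1 animal or a pool, so p-values measure the spread between libraries.

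Counts ranged from 591817 to 5228664 reads on genes per library in CD11c-DTR recipients and the graft, and from 1223772 to 4218027 in CX3CR1-DTR recipients. Normalized reads are reads per 10000000 mapped reads. A count of 0 allows up to 3 reads, which is 3.51 to 27.6 normalized reads depending on the library, and this limit covers counting error only. Epithelial transcripts were measured beside those of macrophages in the sorted libraries, and their source was not tested. The 15 genes of the intestinal epithelium list took 2.51% to 3.37% of reads on genes in colon, 0.441% to 1.31% in ileum outside the pair of libraries named next and at most 0.00151% in the graft. The macrophage and leukocyte list took 0.104% to 0.692% in colon and 1.08% to 1.44% in the graft. In ileum it took 0.272% to 3.04% with that pair included, and 0.482% to 3.04% on days 8 and 12.

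The deposited counts were assigned to 1 transcript per gene (build mm9). Cdx2 lies at chr5:148112476-148118825 and Gata5 at chr2:180059793-180069384, both on the minus strand. Gata4 lies at chr14:63817751-63864108 on the minus strand and Cdx1 at chr18:61178516-61195853, also minus. Gata2 is at chr6:88148658-88157026, Gata6 at chr18:11052508-11085633 and Hnf4a at chr2:163372891-163398643, all on the plus strand. Reads were counted on exons.

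Both ileum day 4 libraries of experiment 1 (replicates 2 and 3) went against their label in several lists. The colonic enterocyte list made up 0.593% and 0.504% of their reads, within or above the 0.253% to 0.455% of colon, where it was 0.0141% to 0.0776% in the 10 other ileum libraries. Their endothelium list was at 0.00682% and 0.00929%, against 0.0521% to 0.277% in the other ileum libraries. Levels and tests of the members that rest on ileum day 4 are therefore mostly given with and without this pair. Given with the pair alone are the tested ratios to Epcam of Gata2, Gata4, Gata5, Cdx1 and Cdx2, and the counts of list genes called. The other ileum library of experiment 1 (day 12 replicate 2) lay with the remaining ileum libraries, at 0.0691% for the colonic enterocyte list and 0.151% for the endothelium list. Experiment 1 holds no colon library of day 4.

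Promoter windows show what can be read next to the gene starts of a member that moved with epithelial RNA in both segments (Hnf4a), one that did so in ileum (Cdx2) and one detected mainly in ileum (Gata5). They are RefSeq windows from 250 bases before to 50 bases after a start, each found once in build NCBIM37, and letters of a GATA motif are in capitals. They come in the order Cdx2 (chr5:148118776-148119075, minus strand), Gata5 (chr2:180069335-180069634, minus strand), the upstream Hnf4a start (chr2:163332343-163332642, plus strand) and the downstream Hnf4a start, which is that of the counted transcript (chr2:163372641-163372940, plus strand).
Cdx2: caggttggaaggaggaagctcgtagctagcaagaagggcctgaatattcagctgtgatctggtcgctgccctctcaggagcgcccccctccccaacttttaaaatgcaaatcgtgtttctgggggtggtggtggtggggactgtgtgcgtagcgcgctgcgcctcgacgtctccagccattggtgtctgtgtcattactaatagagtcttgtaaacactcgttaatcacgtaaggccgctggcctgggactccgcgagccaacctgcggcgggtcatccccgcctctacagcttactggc
Gata5: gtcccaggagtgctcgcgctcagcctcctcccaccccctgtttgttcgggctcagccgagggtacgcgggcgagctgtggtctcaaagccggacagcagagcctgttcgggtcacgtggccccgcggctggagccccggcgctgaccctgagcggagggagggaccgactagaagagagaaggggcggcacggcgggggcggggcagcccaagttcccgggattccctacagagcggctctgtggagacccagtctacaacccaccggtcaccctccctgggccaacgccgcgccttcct
Hnf4a upstream start: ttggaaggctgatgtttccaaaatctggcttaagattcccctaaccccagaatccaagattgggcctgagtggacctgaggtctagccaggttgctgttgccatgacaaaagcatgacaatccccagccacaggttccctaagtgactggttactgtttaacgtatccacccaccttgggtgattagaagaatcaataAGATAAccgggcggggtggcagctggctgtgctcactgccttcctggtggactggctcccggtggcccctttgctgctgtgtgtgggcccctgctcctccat
Hnf4a downstream start: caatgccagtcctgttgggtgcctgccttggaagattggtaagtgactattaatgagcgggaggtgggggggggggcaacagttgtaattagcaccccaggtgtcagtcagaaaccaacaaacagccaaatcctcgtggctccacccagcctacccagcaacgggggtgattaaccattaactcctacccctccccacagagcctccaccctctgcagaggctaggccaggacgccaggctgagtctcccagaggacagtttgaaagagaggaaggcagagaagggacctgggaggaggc

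Both strands were searched for GATA letters (AGATAA or AGATAG or TGATAA or TGATAG), CDX letters (CATAAA or TATAAA or AATAAA, where TATAAA is also a TATA box) and HNF4 letters (CAAAGTCCA or CAAAGGTCA). The only match in these 4 windows was AGATAA at bases -52 to -47 of the upstream Hnf4a start. GATA letters stood in 29.8% and CDX letters in 35.1% of all 32851 windows of this length, and HNF4 letters in 0.950%. Gata2 had windows at 2 starts (chr6:88143635-88143934 and chr6:88148408-88148707), of which the first held AATAAA at bases -202 to -197. Windows of 4 of the 7 members were searched. Those of Cdx1 and Gata6, both on chr18, were left out, and none was at hand for Gata4.

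Against the graft, Cdx1, Hnf4a, Cdx2 and Gata6 went from none or 1 read to levels far above the floor in both segments at every day. Cdx1, Hnf4a and Gata6 had 0 reads in all 3 graft libraries, as had Gata4 and Gata5, and Cdx2 and Gata2 had 1 read in graft replicate 3 and 0 in the others. Epcam also had 1 read in that library and 0 in the others.

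Folds over the graft are lower bounds (at least so many times higher), taken against 3 reads per graft library. For Cdx1 the bound was 389-fold in colon of day 4, 424-fold on day 8 and 358-fold on day 12, and 158-fold, 87.6-fold and 86.7-fold in ileum. For Hnf4a it was 332-fold, 312-fold and 277-fold in colon and 211-fold, 103-fold and 115-fold in ileum on these days. The Epcam bound was 993-fold, 973-fold and 760-fold in colon and 565-fold, 295-fold and 266-fold in ileum, so it was the highest bound of these genes in each group. Without the pair of experiment 1, the ileum day 4 bounds were 83.9-fold for Cdx1, 136-fold for Hnf4a and 274-fold for Epcam.

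Cdx2 was at least 94.2-fold, 105-fold and 113-fold higher in colon than in the graft and 102-fold, 47.5-fold and 37.8-fold in ileum. Gata6 was at least 49.2-fold, 47.2-fold and 44.7-fold higher in colon and 29.6-fold, 20.4-fold and 20.0-fold in ileum. Gata2 had bounds of 1.85-fold, 2.74-fold and 3.50-fold in colon and of 7.89-fold, 13.2-fold and 12.9-fold in ileum. The colon day 4 value rests on replicate 3 (28.5 normalized reads). Replicates 1 and 2 (5.38 and 5.93) lay under the mean graft floor of 7.17. For Gata4 and Gata5 bounds exist in ileum alone, at 3.03-fold, 5.25-fold and 4.56-fold and at 3.49-fold, 8.70-fold and 10.3-fold, since nearly all colon libraries were at or under the floor. Without the pair, the ileum day 4 bounds were 44.4-fold for Cdx2, 26.6-fold for Gata6, 14.99-fold for Gata2, 5.91-fold for Gata4 and 6.98-fold for Gata5.

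Of the 7 members, 6 reached 50 normalized reads in 3 libraries and were tested among 11842 genes with edgeR, where a call is an adjusted p under 0.05. All 6 passed this filter through sorted libraries, Gata2 and Gata5 through ileum alone, so their counts of calls are a description. Gata4 reached the level in too few libraries. In colon 5 of the 6 were called higher than the graft on each day, all but Gata5, where 35.9% (day 4), 35.2% (day 8) and 37.7% (day 12) of all genes tested were called higher. In ileum all 6 were called higher, where the share of all genes was 36.2%, 34.3% and 35.9%. The weakest of these calls was Gata2 in colon on day 4 (log2 fold change 3.90 ± 1.34 SE, adjusted p = 0.0152), and it was lost without colon day 4 replicate 3 (2.68, adjusted p = 0.152), without graft replicate 1 (3.51, adjusted p = 0.0509) and without graft replicate 2 (3.34, adjusted p = 0.0660). The fit with the experiment as block changed none of these calls.

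**Figure D1:**
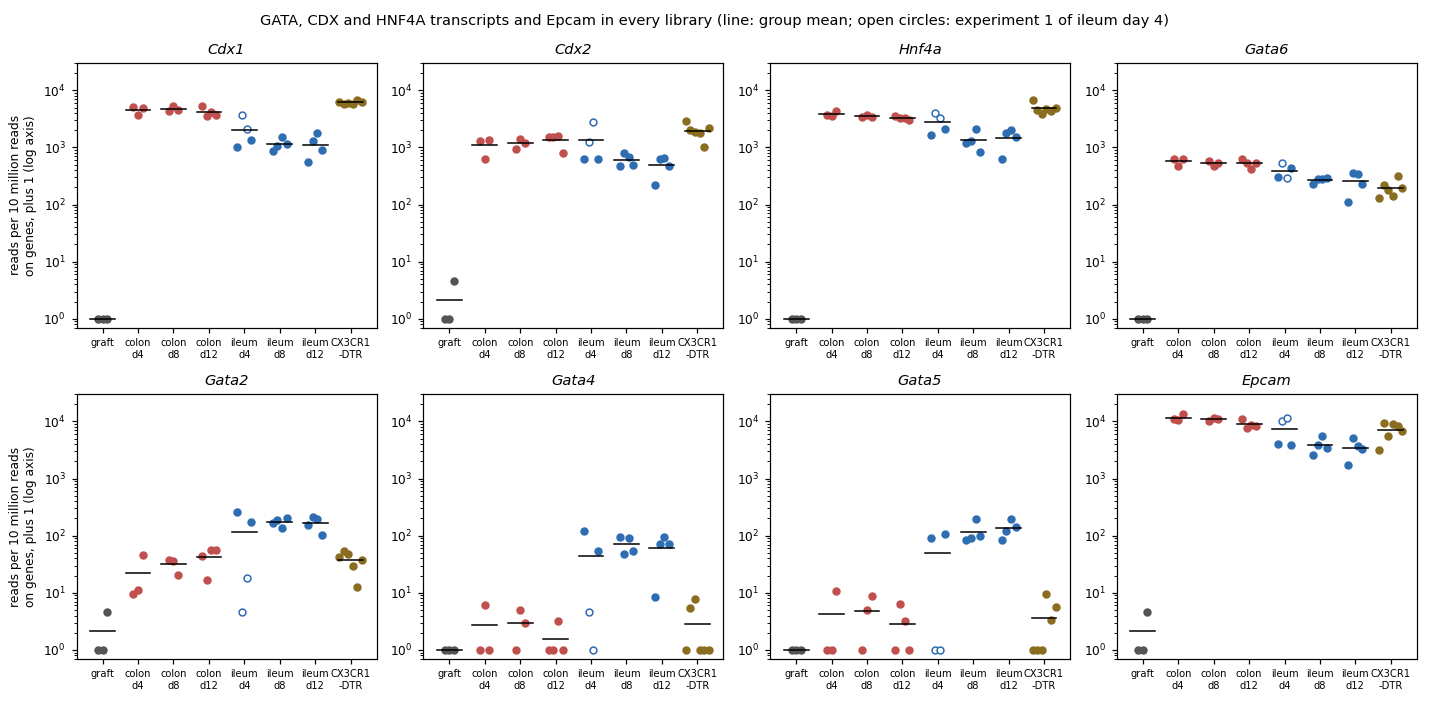
Reads per 10000000 reads on genes plus 1, on a log axis, of the 7 members and Epcam in each library of the graft, the colon and ileum by day and the CX3CR1-DTR colon, where a line is the group mean and open circles are the ileum day 4 libraries of experiment 1. Cdx1, Cdx2, Hnf4a and Gata6 were in every sorted library, and Gata4 and Gata5 were at or near 0 outside ileum.

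Cdx1, a homeobox factor with its highest levels toward the distal gut, had 3228, 2108 and 3028 normalized reads in colon on day 4, 2823, 3507 and 2795 on day 8 and 3684, 2089, 2369 and 2109 on day 12. In ileum it had 475, 2201, 1124 and 727 normalized reads on day 4, 439, 694, 780 and 598 on day 8 and 337, 767, 933 and 447 on day 12. Colon and ileum did not overlap on days 8 and 12, and on day 4 the one ileum library inside the colonic range was replicate 2 of experiment 1.

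Cdx1 was higher in colon than in ileum on day 8 by 1.97 ± 0.37 (log2 fold change ± SE, adjusted p = 0.000696) and on day 12 by 1.94 ± 0.36 (adjusted p = 0.000678). On day 4 the difference was 1.19 ± 0.37 with an adjusted p of 0.0693. It was 1.76 (adjusted p = 0.00943) with experiment as a block and 2.17 (adjusted p = 0.000199) without the pair of experiment 1.

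Hnf4a had 2348, 2066 and 2727 normalized reads in colon on day 4, 2165, 2440 and 2099 on day 8 and 2404, 1927, 1874 and 1730 on day 12. Ileum libraries had 786, 2325, 1769 and 1163 normalized reads on day 4, 588, 829, 1104 and 418 on day 8 and 385, 1079, 1069 and 754 on day 12. As with Cdx1, the segments did not overlap on days 8 and 12 among the libraries compared, and only replicate 2 of ileum day 4 reached the colonic range. Hnf4a was higher in colon by 1.34 ± 0.32 on day 8 (log2, adjusted p = 0.00355) and by 1.17 ± 0.30 on day 12 (adjusted p = 0.00600). The day 4 difference was 0.55 ± 0.32 (adjusted p = 0.330), and 1.26 (adjusted p = 0.00778) without the pair.

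Cdx2, the main regulator of intestinal identity, had 799, 365 and 862 normalized reads in colon on day 4, 611, 929 and 722 on day 8 and 1049, 881, 878 and 442 on day 12. In ileum it had 294, 739, 1548 and 342 normalized reads on day 4, 236, 523, 355 and 248 on day 8 and 131, 372, 343 and 238 on day 12. Ileum day 4 replicate 3, with 1548, was the highest of all 22 sorted CD11c-DTR libraries compared. The segments did not overlap on days 8 and 12 among the libraries compared.

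Cdx2 was higher in colon on day 12 by 1.47 ± 0.43 (log2, adjusted p = 0.0114). On day 8 the difference was 0.88 ± 0.45 (adjusted p = 0.134), which passed when only the compared groups were fitted (0.90, adjusted p = 0.0275) or without the day 4 pair (0.88, adjusted p = 0.0297). On day 4 it was -0.27 ± 0.46 (adjusted p = 0.788), and 1.02 (adjusted p = 0.0621) without the pair, so its sign turned.

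Gata6, the GATA factor found along the whole intestine, had 387, 269.8 and 401 normalized reads in colon on day 4, 371, 313 and 331 on day 8 and 434, 318, 230.2 and 299 on day 12. Ileum libraries had 145, 312, 157 and 235 normalized reads on day 4, 114, 179, 147 and 146 on day 8 and 65.7, 210.5, 182 and 114 on day 12. Among the libraries compared, ileum was below colon without overlap on days 8 and 12, and ileum day 4 replicate 2 lay within the colonic range.

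Gata6 was higher in colon by 0.91 ± 0.28 on day 8 (log2, adjusted p = 0.0168) and by 1.06 ± 0.26 on day 12 (adjusted p = 0.00446). The day 8 call was lost without colon day 8 replicate 4 (0.89, adjusted p = 0.0536) and without ileum day 8 replicate 1 (0.78, adjusted p = 0.0554). On day 4 the difference was 0.62 ± 0.28 (adjusted p = 0.200), and 0.87 (adjusted p = 0.0609) without the pair.

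The 10 genes of the peritoneal macrophage list took 0.00153% to 0.00847% of reads in colon and 0.00768% to 0.0101% in the graft, where Gata6 had no read. In ileum the list took 0.00101% to 0.0174% with the pair included, and 0.00527% to 0.01535% on days 8 and 12. Of its 5 genes tested, 3 were higher and 2 lower than the graft in colon on each day, and 3 higher and 1 lower in ileum. Of all genes tested, 35.2% to 37.7% were higher in colon and 34.3% to 36.2% in ileum. Between colon and ileum 1 of the 5 was lower in colon on day 8 and 2 on day 12, where 18.3% and 17.2% of all genes were. Cd5l was at 0 in every colon group. The part of these cells in the level of Gata6 was not tested.

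Gata5, an endodermal GATA factor, had 0, 0 and 3 reads in colon on day 4, 0, 1 and 4 on day 8 and 0, 1, 1 and 0 on day 12. In ileum it had 13, 0, 0 and 8 reads on day 4, 15, 17, 30 and 15 on day 8 and 22, 19, 40 and 47 on day 12. The ileum libraries without a read were both from the pair of experiment 1, and the 10 others held 8 to 47 reads, above every colon library. In normalized reads these 10 had 42.9 and 57.1 on day 4, 40.7 to 100.4 on day 8 and 49.8 to 104 on day 12.

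Gata5 was lower in colon on day 8 (log2 -4.49 ± 1.00, adjusted p = 0.00224) and on day 12 (-6.05 ± 1.02, adjusted p = 0.000452). Against the floor of the colon libraries, ileum of day 12 was at least 12.4-fold higher. On day 4 the difference was -3.40 ± 1.16 (adjusted p = 0.0914). It was -3.69 (adjusted p = 0.0396) with experiment as a block, -3.57 (adjusted p = 0.0368) with DESeq2 and -4.40 (adjusted p = 0.00106) without the pair.

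Gata4, which marks the small intestine upstream of the distal ileum, had 0, 1 and 0 reads in colon on day 4, 0, 1 and 1 on day 8 and 0, 0, 1 and 0 on day 12. In ileum it had 17, 1, 0 and 4 reads on day 4, 17, 9, 14 and 8 on day 8 and 2, 11, 19 and 24 on day 12. Every colon library was at or under the floor of 3 reads, and so were 3 of 12 ileum libraries, the pair of experiment 1 and day 12 replicate 1. Against the floor, ileum was at least 3.20-fold (6.23-fold without the pair), 5.26-fold and 5.50-fold higher than colon on days 4, 8 and 12. Without the filter on low counts (18566 genes tested), Gata4 was lower in colon on days 8 (log2 -4.78 ± 1.10, adjusted p = 0.00265) and 12 (-5.55 ± 1.07, adjusted p = 0.000633) and not called on day 4 (-4.52, adjusted p = 0.0527), where without the pair it was (-5.46 ± 1.09, adjusted p = 0.000828). These fitted values of a gene near 0 depend on the prior count.

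The small intestinal enterocyte list moved with both genes. Its 12 genes took 0.0245% to 0.0360% of reads in colon, 0.0310% and 0.0355% in the pair of experiment 1 and 0.0436% to 0.481% in the 10 other ileum libraries, and its part in the levels of Gata4 and Gata5 was not tested. Of the 9 genes of the list that were tested, 6 were lower and 1 higher in colon on days 8 and 12. Of all genes tested, 18.3% were lower and 16.7% higher on day 8, and 17.2% and 15.3% on day 12. Fabp6, the ileal bile acid binding protein, was at -4.94 ± 1.27 (log2, adjusted p = 0.00533) and -6.39 ± 1.19 (adjusted p = 0.000739) on these days.

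Gata2, a factor of blood progenitors, mast cells and endothelium, had 5.38, 5.93 and 28.5 normalized reads in colon on day 4 (3, 2 and 14 reads), 23.6, 23.5 and 11.7 on day 8 and 29.2, 9.34, 30.5 and 31.3 on day 12. In ileum it had 122, 2.13, 9.22 and 92.7 normalized reads on day 4, 81.3, 121, 70.3 and 105 on day 8 and 90.6, 124, 104 and 51.8 on day 12. The pair of experiment 1 had 1 read each, and the 10 other ileum libraries were all above all 10 colon libraries.

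Gata2 was lower in colon by 2.64 ± 0.76 on day 8 (log2, adjusted p = 0.0105) and by 1.89 ± 0.64 on day 12 (adjusted p = 0.0274). The day 8 call was lost without colon day 8 replicate 4 (adjusted p = 0.0642). The day 12 call was lost without colon day 12 replicate 1 (adjusted p = 0.0628), colon day 12 replicate 2 (0.0695) or ileum day 12 replicate 2 (0.0560). On day 4 the difference was -2.15 ± 0.81 (adjusted p = 0.120), and -3.05 (adjusted p = 0.000897) without the pair.

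Endothelial genes moved in the same direction. All 6 genes of the endothelium list were lower in colon on days 8 and 12, among them Kdr, a receptor for VEGF (-3.89 ± 0.91, adjusted p = 0.00310, and -2.89 ± 0.77, adjusted p = 0.00699). Of all genes tested, 18.3% and 17.2% were lower in colon on these days. The list took 0.00735% to 0.0343% of reads in colon and 0.0521% to 0.277% in ileum without the pair, and its part in the level of Gata2 was not tested. The mast cell and basophil list took 0.000302% to 0.000572% of reads in the graft and 0.00198% to 0.00316% in colon. It took 0.000845% to 0.00322% in ileum with the pair included, and 0.00146% to 0.00322% in ileum on days 8 and 12. Of its 11 genes 2 were tested. Kit, the stem cell factor receptor, was higher than the graft in both segments on each day, and Hdc, the enzyme that makes histamine, in ileum on each day. On day 12 Kit was higher in colon than in ileum (1.13 ± 0.33, adjusted p = 0.0116) and Hdc lower (-2.11 ± 0.51, adjusted p = 0.00359). Cpa3, Ms4a2 and Mcpt4 were at 0 in all groups compared. Other mast cell genes of the list had reads but were not tested. Mcpt1 and Cma1 had reads in colon on each day and in ileum on day 4. Mcpt2 had reads in colon on days 8 and 12, and Tpsb2 in colon on days 4 and 12 and in ileum on day 4. The part of these cells in the level of Gata2 was not tested.

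**Figure D2:**
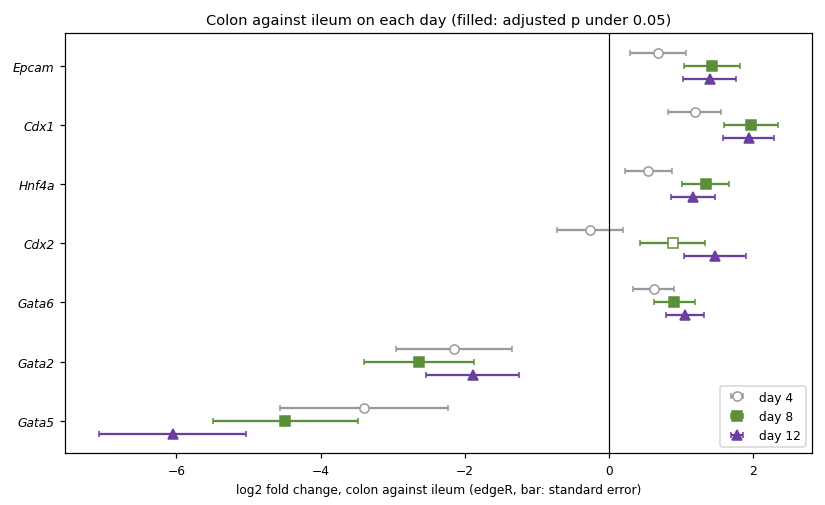
Log2 fold change of colon against ileum (edgeR, bars are the SE) on days 4, 8 and 12 for the 6 members tested and Epcam, with filled points for an adjusted p under 0.05. Gata2 and Gata5 lie below 0 on all days, Cdx1, Hnf4a, Gata6 and Epcam above, and no point of day 4 is filled.

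In all, 5 of the 6 members tested were called between colon and ileum on day 8, where 35% of all genes were, and 6 of 6 on day 12, where 32.5% were. Of the 4 that passed the filter in both segments (Gata6, Cdx1, Cdx2 and Hnf4a), 3 were called on day 8 and 4 on day 12. On day 4 edgeR called 0 of 6, where 3.18% of all genes were called. At an unadjusted p under 0.05 there were 4, DESeq2 called 2, the fit with experiment as a block 2 (Gata5 and Cdx1), and the fit without the pair of experiment 1 called 4 (Gata2, Gata5, Cdx1 and Hnf4a). Leaving out ileum day 4 replicate 2 alone gave 4 calls (Gata2, Gata5, Gata6 and Cdx1). With Epcam as a covariate in the sorted libraries, 0 of 6 members were called on days 8 and 12 (2 on each at an unadjusted p under 0.05), in a fit where 3 and 5 of all 11842 genes were called. Gata5 kept a difference of -3.44 and -5.07 there, Gata2 was at -1.36 and -0.78, Cdx1 at 0.48 and 0.66, and Hnf4a at 0.085 and 0.099. Epcam itself was higher in colon by 1.43 ± 0.39 on day 8 (log2, adjusted p = 0.00718) and 1.40 ± 0.37 on day 12 (adjusted p = 0.00613). In bulk libraries, fewer cells of a type and less RNA per cell cannot be told apart.

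Between day 4 and day 12 no member was called in either segment. In colon edgeR called 0 of 6 members and 0% of all genes, with 0 members at an unadjusted p under 0.05 and 0 by DESeq2. Group means of Cdx1 were 2788 ± 597 (SD, n = 3), 3042 ± 403 (n = 3) and 2563 ± 758 (n = 4) normalized reads on days 4, 8 and 12, those of Hnf4a 2380 ± 331, 2234 ± 181 and 1984 ± 292, and those of Gata6 353 ± 72.0, 339 ± 29.8 and 320 ± 84.7.

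In ileum edgeR again called 0 of 6 members between day 4 and day 12, where 2.3% of all genes were called, with 5 members at an unadjusted p under 0.05 and 1 (Cdx2) by DESeq2. Cdx2 differed by -1.45 ± 0.43 (log2, adjusted p = 0.0726), Hnf4a by -0.87 ± 0.30 (adjusted p = 0.129) and Gata5 by 1.66 ± 0.76 (adjusted p = 0.257). Without the pair of experiment 1 these were -0.17, -0.17 and 0.66, Cdx1 went from -0.87 to 0.11 and Gata2 from 0.71 to -0.20, with adjusted p-values of 0.993 and above. Leaving out ileum day 4 replicate 1 gave 3 calls (Cdx1, Cdx2 and Hnf4a) and leaving out replicate 4 gave 1 (Cdx2).

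The change over time did not differ detectably between segments. For this interaction edgeR called 0 of 6 members and 0% of all genes, with 1 member (Cdx2, 1.74 ± 0.63 on the log2 scale) at an unadjusted p under 0.05 and 0 by DESeq2.

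Set against Epcam within each library, the members divided by segment. Gata5, Gata4 and Gata2 had more reads per Epcam read in ileum than in colon, and Cdx1 had more in colon. Cdx2 had fewer in colon on average over days. Gata6 and Hnf4a did not pass the threshold in the main test but did under some alternatives. The ratio needs no scaling between libraries, and the difference of its log2 means, averaged over days, was tested for 7 members by an exact two-sided permutation of segment within day (10 colon and 12 ileum libraries).

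Pooled over libraries, Gata5 had 0.305 reads per 1000 Epcam reads in colon, 22.4 in ileum, 34.3 in ileum without the pair and 0 in the pair. Gata4 had 0.122, 12.5, 19.0 and 0.286 reads per 1000 Epcam reads in these sets. Gata2 had 3.26, 31.6, 48.0 and 0.573. For these 3 genes the pair of experiment 1 lay below the other ileum libraries, and without it the ratios of colon and ileum did not overlap.

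The colon minus ileum difference in log2 ratio was -5.47 for Gata5 (exact permutation p = 0.000140, adjusted over the 7 ratios 0.000490). It was -5.29 for Gata4 (exact permutation p = 2.33e-05, adjusted 0.000163) and -3.27 for Gata2 (exact permutation p = 0.000408, adjusted 0.000952). For Gata4 and Gata5 these values depend on the 0.5 read added to each count.

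Cdx1 had 437 reads per 1000 Epcam reads in colon, 317 in ileum, 310 in ileum without the pair and 330 in the pair, and its log2 ratio was higher in colon by 0.51 (exact permutation p = 0.000770, adjusted 0.00135). Cdx2 had 121, 151, 153 and 147, and its log2 ratio was lower in colon (-0.49, exact permutation p = 0.0129, adjusted 0.0181), by day -0.91, -0.58 and 0.04. The day 4 value includes ileum replicate 3 of the pair, which had the highest Cdx2 ratio of the CD11c-DTR libraries (248 per 1000 Epcam reads). With Vil1, a structural protein of microvilli, in place of Epcam the value for Cdx2 was -0.34 (adjusted p = 0.260). On day 8 the estimates for the ratio of Cdx2 (not tested by day) and for its normalized reads (not called) had opposite signs.

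Gata6 had 52.2 reads per 1000 Epcam reads in colon, 64.9 in ileum, 74.6 in ileum without the pair and 46.7 in the pair. Its log2 ratio differed by -0.38 (exact permutation p = 0.0675, adjusted 0.0787), which was called with experiment as a block (adjusted p = 0.0477), without the pair (-0.61, adjusted p = 0.000971), without ileum day 4 replicate 3 (-0.52, adjusted p = 0.00297) and without ileum day 8 replicate 3 (-0.44, adjusted p = 0.0486). Hnf4a had 340 reads per 1000 Epcam reads in colon, 395 in ileum, 410 in ileum without the pair and 367 in the pair, a difference in log2 ratio of -0.19 (exact permutation p = 0.138, adjusted 0.138). It was called without the pair (-0.28, adjusted p = 0.0335), without ileum day 4 replicate 3 (-0.24, adjusted p = 0.0448) and without ileum day 8 replicate 4 (-0.24, adjusted p = 0.0336).

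**Figure D3:**
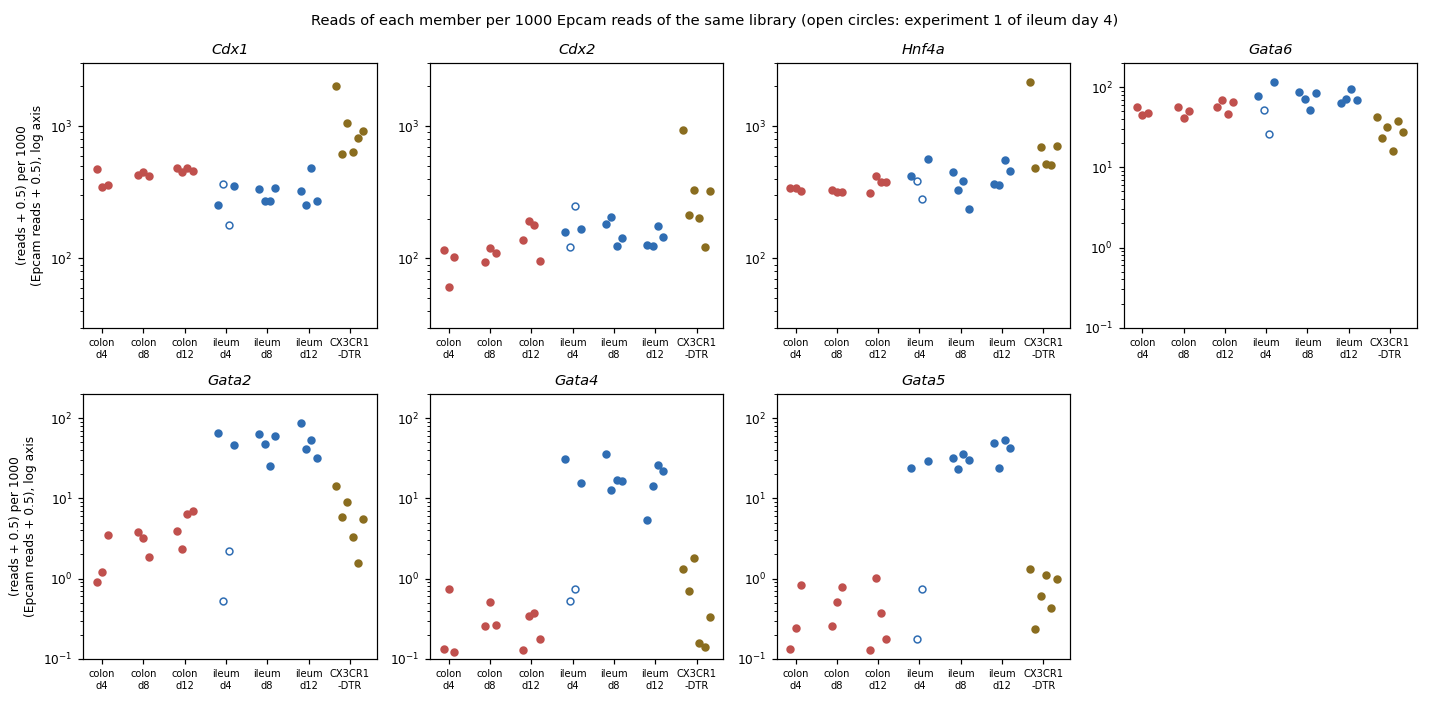
Reads of each member plus 0.5 per 1000 Epcam reads plus 0.5, on a log axis, in each library by group. Cdx1, Cdx2, Hnf4a and Gata6 overlap between colon and ileum of CD11c-DTR recipients. Gata2, Gata4 and Gata5 stand higher in ileum except in the pair of open circles from experiment 1 of ileum day 4.

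Across libraries of a segment, Cdx1 and Hnf4a followed Epcam in colon, and Cdx1, Cdx2, Hnf4a and Gata6 followed it in ileum. Correlations are of log2(normalized reads + 50), over 17 relations, and all values of a library share its depth and its total, so that none is free of the others. In the 10 colon libraries Hnf4a gave r = 0.95 (permutation p = 1e-05, the smallest possible, adjusted p = 8.5e-05) and rho = 0.98 (permutation p = 1e-05, adjusted p = 8.5e-05), and r = 0.96 without the 2 libraries farthest from the median of Epcam. Cdx1 gave r = 0.86 (permutation p = 0.00238, adjusted p = 0.00809) and rho = 0.84 (permutation p = 0.00350, adjusted p = 0.0119), and r = 0.75 without these libraries. Neither relation was called with Cdh1, the epithelial cadherin, in place of Epcam (r = 0.58 for Hnf4a and 0.68 for Cdx1).

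Gata6 in colon gave r = 0.68 (permutation p = 0.0324, adjusted p = 0.0649) and rho = 0.66 (permutation p = 0.0438, adjusted p = 0.106), with r = 0.81 without the 2 farthest libraries. Cdx2 in colon gave r = 0.37 (permutation p = 0.297, adjusted p = 0.360) and rho = 0.43 (permutation p = 0.218, adjusted p = 0.463). Gata2 in colon gave r = 0.07 (permutation p = 0.831, adjusted p = 0.831) and rho = -0.14 (permutation p = 0.707, adjusted p = 0.802). So 2 of the 5 members with a relation in colon followed Epcam past the threshold. No experiment holds 6 colon libraries, so no value within an experiment is given for colon.

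The ileum libraries formed 2 clusters in Epcam, the pair of experiment 1 with 6006 and 6249 normalized reads and the 10 others with 1046 to 3011, and relations are given over these 10. Cdx2 gave r = 0.88 (permutation p = 0.00067, adjusted p = 0.00570) and rho = 0.95 (permutation p = 8e-05, adjusted p = 0.00068), with r = 0.81 without the 2 farthest libraries (day 12 replicates 1 and 2). Cdx1 gave r = 0.81 (permutation p = 0.00457, adjusted p = 0.0194) and rho = 0.84 (permutation p = 0.00386, adjusted p = 0.0131), with r = 0.69 without them. Both stayed positive, with 8 libraries left.

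Gata6 gave r = 0.79 in these 10 libraries (permutation p = 0.00608, adjusted p = 0.0207) and rho = 0.83 (permutation p = 0.00480, adjusted p = 0.0136), with r = 0.52 without the 2 farthest. Hnf4a gave r = 0.77 (permutation p = 0.00851, adjusted p = 0.0241) and rho = 0.85 (permutation p = 0.00289, adjusted p = 0.0131), with r = 0.59 without them. Gata5 gave r = 0.54 (permutation p = 0.109, adjusted p = 0.231) and rho = 0.65 (permutation p = 0.0484, adjusted p = 0.103), and r = 0.54 without the 2 farthest. Gata4 (r = 0.51, rho = 0.30) and Gata2 (r = 0.30, rho = 0.44) had adjusted p-values of 0.253 and 0.484 for r in the permutation test. With the pair included, r of Gata2, Gata4 and Gata5 was -0.70, -0.45 and -0.60.

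Experiment 2 holds 6 of these ileum libraries, and within it the relations of Hnf4a and Cdx2 were called and those of Cdx1 and Gata6 were not. Hnf4a gave r = 0.92 (exact permutation p = 0.00694, adjusted p = 0.0295) and rho = 0.94 (exact permutation p = 0.0167, adjusted p = 0.0708). Cdx2 gave r = 0.91 (exact permutation p = 0.00278, adjusted p = 0.0157) and the same rho as Hnf4a. Cdx1 gave r = 0.82 (exact permutation p = 0.0417, adjusted p = 0.118) and Gata6 r = 0.74 (exact permutation p = 0.0806, adjusted p = 0.196), each with rho = 0.83 (exact permutation p = 0.0583, adjusted p = 0.142). Without the 2 farthest libraries r was 0.92, 0.95, 0.69 and 0.87 for these 4 genes, over the 4 left.

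**Figure D4:**
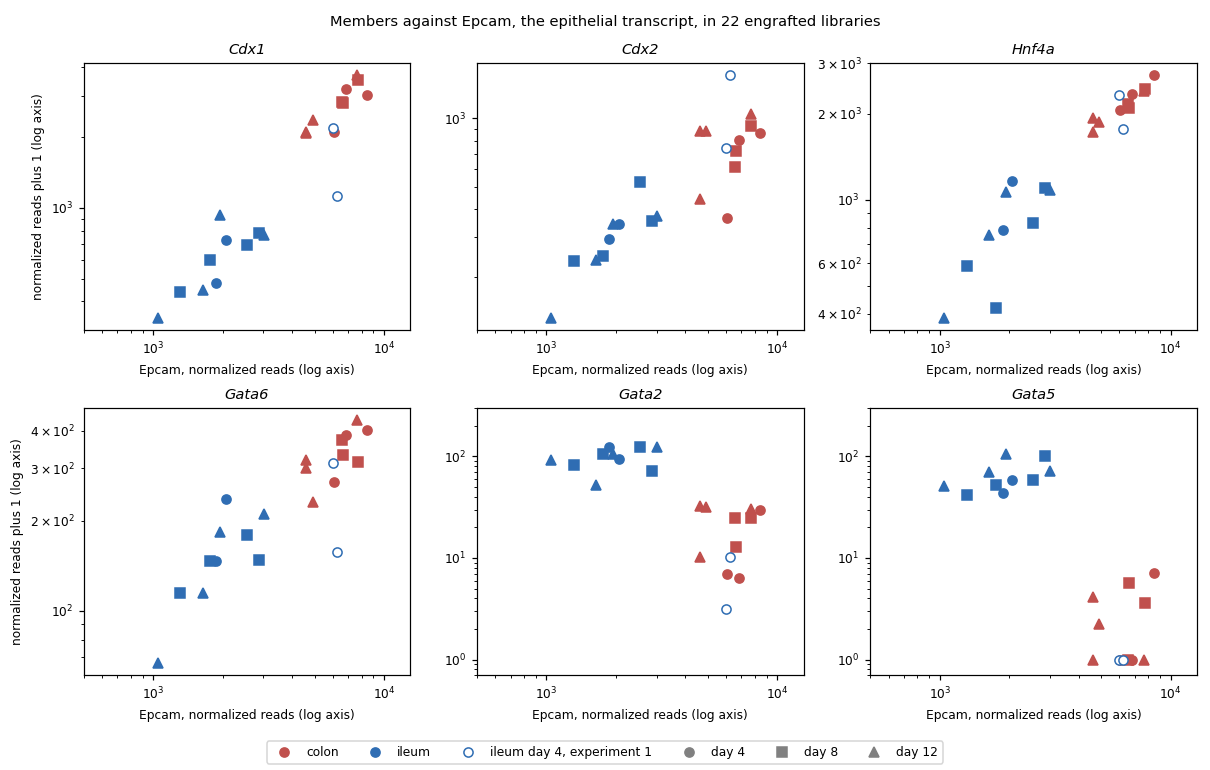
Normalized reads of Cdx1, Cdx2, Hnf4a, Gata6, Gata2 and Gata5 (log axis) against those of Epcam in the 22 sorted CD11c-DTR libraries compared, by segment, with open circles for the ileum day 4 libraries of experiment 1. Cdx1, Cdx2, Hnf4a and Gata6 lie higher where Epcam is higher, and the open circles lie within the colonic range of Epcam. In Cdx1 and Gata6 one of them lies below the colon libraries, in Cdx2 one lies above, and in Gata2 and Gata5 both are at low values.

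The 5 genes whose log2 levels ran closest to each member over the 22 sorted libraries included no other member. They were ranked by Pearson r, as a description across libraries of 2 segments. For Hnf4a they were Atp1b1 (r = 0.97), Clmn, Krt8, Cnnm4 and Hsd11b2, for Cdx1 Ap1m2 (r = 0.98), Atp5d, Smim6, Uqcr10 and Thap4, and for Cdx2 Spr (r = 0.95), Sfn, Aim1, Abcb6 and Ap1s1. For Gata6 they were Sort1 (r = 0.95), Adgra3, Cox10, Npdc1 and Krt7. For Gata5 they were Tm4sf5 (r = 0.97), Lgals2, Ccl25, Enpep and Ggt1, and for Gata2 Parvb (r = 0.96), Esam, Rasip1, Ifi35 and Gimap5. Cdx1 was number 23 of 11841 genes for Gata6 (r = 0.93), Hnf4a was number 252 for Cdx1 (r = 0.94), and Gata5 was number 152 for Gata2 (r = 0.87).

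**Figure D5:**
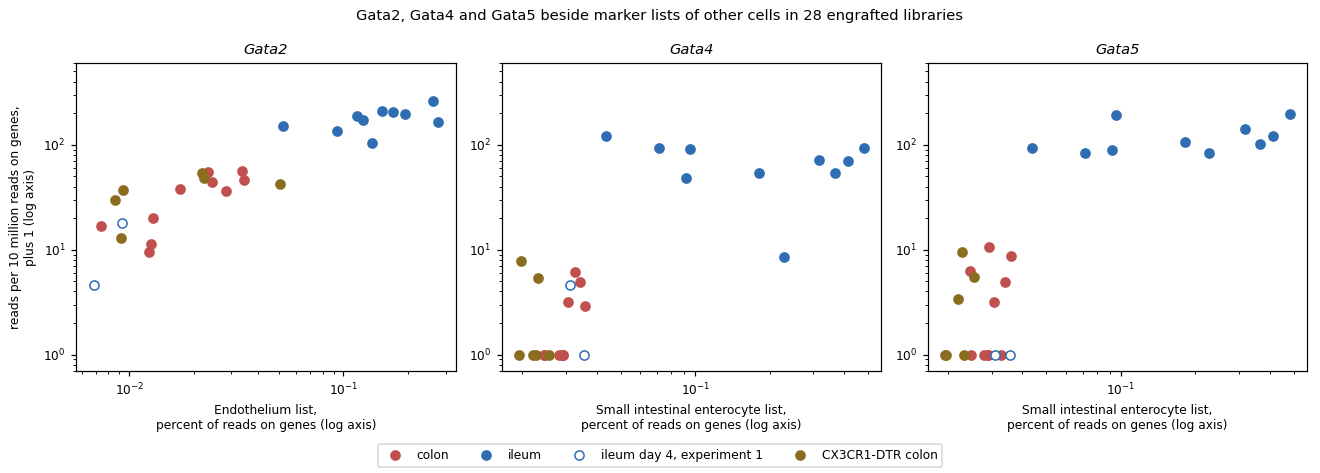
Gata2 against the endothelium list, and Gata4 and Gata5 against the small intestinal enterocyte list, in the 28 sorted libraries of both recipients, with the lists as a share of reads on genes. Colon libraries of both recipients and the pair of experiment 1 lie below the other ileum libraries in both the list and the member. Among those other ileum libraries, day 4 replicate 1 had the lowest small intestinal enterocyte share and the highest Gata4.

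In CX3CR1-DTR recipients, values are per 10000000 reads on genes, as are the colon day 12 values set beside them. Recipient, day, table and batch differ together between these groups and cannot be told apart. Cdx1 had 5802 to 6766 reads with a median of 6133 in the 6 libraries, against 5394, 3547, 4224 and 3748 in colon of day 12, without overlap. Hnf4a had 3897 to 6725 with a median of 4622, against 3519, 3272, 3340 and 3074, also without overlap. Cdx2 had 1019 to 2925 with a median of 1935, against 1536, 1496, 1566 and 785, which overlapped.

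Gata6 had 131 to 315 reads per 10000000 on genes with a median of 184 in CX3CR1-DTR recipients, against 635, 539, 410.5 and 530.5 in colon of day 12, and was lower without overlap. Gata2 had 11.9 to 52.7 with a median of 38.6, against 42.7, 15.9, 54.3 and 55.7, which overlapped. Gata4 had 2 reads and Gata5 5 reads in all 6 libraries, with no library above the floor of 3 reads. The colon of both recipients thus held 4 of 7 members above the floor in every library, namely Cdx1, Cdx2, Hnf4a and Gata6.

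Of the 5 members that reached the filter among 11718 genes, all through colon libraries, all 5 were called against the graft, where 75.5% of genes were called, and 3 of 5 against colon of day 12, where 60.7% were. Gata6 was lower by 1.44 ± 0.25 (log2, adjusted p = 0.000254), and Cdx1 and Hnf4a were higher by 0.52 ± 0.16 (adjusted p = 0.0122) and 0.53 ± 0.18 (adjusted p = 0.0205). Cdx2 differed by 0.52 ± 0.29 (adjusted p = 0.132), Gata2 by -0.38 ± 0.45 (adjusted p = 0.486) and Epcam by -0.37 ± 0.27 (adjusted p = 0.255). The Hnf4a call was lost without colon day 12 replicate 4 (0.49, adjusted p = 0.0566), and Cdx2 was called without CX3CR1-DTR replicate 5 (0.66, adjusted p = 0.0379).

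Per 1000 Epcam reads, pooled, the CX3CR1-DTR libraries had 800 reads of Cdx1, 602 of Hnf4a, 228 of Cdx2, 27.3 of Gata6 and 4.06 of Gata2. Replicate 1 had the lowest Epcam (3138 reads per 10000000 on genes, against 5634 to 9422 in the others) and the highest Hnf4a and Cdx2. Its colonic enterocyte list took 0.0770% of reads, against 0.214% to 0.260% in the others, and its part in these values was not tested. Over the 6 libraries no member had a called correlation with Epcam in exact permutation tests, with r between -0.70 (Hnf4a, rho = -0.26, exact p = 0.149, adjusted p = 0.230) and 0.55 (Gata6, rho = 0.54, exact p = 0.267, adjusted p = 0.349).

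Related genes gave the setting of these values. Of 24 other transcription factors of gut epithelium, 21 were tested, of which 15 were higher and 1 lower in colon than in ileum on day 8 and again on day 12. Of all genes tested, 16.7% were higher and 18.3% lower on day 8 and 15.3% and 17.2% on day 12. The 21 factors had median log2 fold changes of 1.44 and 1.63 where the median of all genes was -0.05 and -0.01. Klf5, a factor of proliferating crypt cells, was higher in colon by 1.47 ± 0.41 (adjusted p = 0.00845) and 1.50 ± 0.39 (adjusted p = 0.00566), and Ehf, an ETS factor of epithelia, by 1.67 ± 0.33 (adjusted p = 0.000811) and 1.88 ± 0.31 (adjusted p = 0.000388). On day 4, 1 of the 21 was called, lower in colon.

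Of 12 genes known as targets of CDX2, HNF4A or GATA4, 11 were tested, of which 3 were higher and 7 lower in colon on day 8 (median log2 fold change -3.64) and 2 higher and 6 lower on day 12 (median -4.72). Among them Muc2, the main gel mucin of goblet cells, was higher by 2.11 ± 0.49 (adjusted p = 0.00268) and 3.08 ± 0.49 (adjusted p = 0.000317), and Apoa1, an apolipoprotein of small intestinal enterocytes, was lower by 8.14 ± 1.46 (adjusted p = 0.000400) and 6.78 ± 1.20 (adjusted p = 0.000503). Among all genes tested, 16.7% were higher and 18.3% lower in colon on day 8, and 15.3% and 17.2% on day 12. The list was chosen for its known regulators, and its genes went in both directions. Of these regulators, Hnf4a was higher in colon on days 8 and 12, and Cdx2 was called higher on day 12 alone. Gata4 was lower in colon on both days without the filter on low counts. The part of these regulators in the levels of the list was not tested.

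Of 5 other GATA family genes and cofactors (Gata1, Gata3, Zfpm1, Zfpm2 and Trps1), 2 were tested. Both were lower in colon on days 8 and 12, where 18.3% and 17.2% of all genes tested were lower. Zfpm1, a cofactor of GATA factors in blood cells, was at -1.80 ± 0.64 on day 8 (log2, adjusted p = 0.0319) and -1.97 ± 0.59 on day 12 (adjusted p = 0.0137), and Trps1, a GATA type repressor, at -1.64 ± 0.53 (adjusted p = 0.0195) and -1.94 ± 0.45 (adjusted p = 0.00269). Gata3 averaged 11.1 normalized reads over the sorted libraries and was not tested.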

How the data were processed

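RNA-seq was compared in 32 libraries, of which 25 from CD11c-DTR recipients and the graft and 6 from CX3CR1-DTR recipients were tested. The authors deposited raw counts per gene. Per the methods of the study, poly(A) RNA was sequenced by a MARS-seq derivative and reads were aligned to mm9 with HISAT 0.1.6. Unique reads on the sense strand of exons were counted with HOMER, with 1 transcript per gene (the version of HOMER is not given in the sources used here, nor is any collapse by molecular identifier). Columns without a name, 52 in number and all in the table that holds the CX3CR1-DTR libraries, were not used.

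Counts were fitted with edgeR 4.0.16 (TMM, glmQLFit, glmQLFTest) in R 4.3.3, on genes with at least 50 reads per 10000000 in at least 3 libraries, in 1 fit of 7 groups for CD11c-DTR recipients and in another with graft, colon day 12 and CX3CR1-DTR colon. Benjamini-Hochberg adjustment ran over all genes tested, with a threshold of 0.05. Standard errors are |log2 fold change| over the root of the F statistic. Ratios to Epcam (0.5 read added) and correlations with Epcam (100000 resamples, exact for 6 libraries) were tested by permutation with numpy 2.4.6 and scipy 1.17.1 in python 3.11.15. The scripts were tested on simulated data.

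The members and the gene lists were chosen with earlier results of these data known. Genes named are the 7 members and Epcam, up to 4 genes per list by highest mean level, and the 5 genes nearest each member by Pearson r of log2 levels. Alternatives were DESeq2 1.42.0, scaling to library totals, no filter, fits of the compared groups alone, Epcam as a covariate, experiment as a block, all 4 colon day 8 libraries, and leaving out libraries. Dates in the titles give 3 experiments, with one date a year early read as a slip. Deviations from group means had a median correlation of 0.0222 over 96 pairs of 1 experiment and -0.0119 over 171 pairs of different ones. No pair of libraries within a group agreed within sampling noise (chi-square per degree of freedom of 4.73 or more in 51 pairs). Colon was digested with collagenase for 40 minutes and ileum for 20.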

Additional observations from a re-analysis of the deposited data

Results flagged for a closer look

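In 67 groups of 4 to 10 libraries the highest or lowest library was checked for a gap to the others, and 6 values in 3 libraries stood apart, where chance alone sets apart about 1 in 20 groups. Epcam in colon day 12 replicate 1 (7662 normalized reads, the highest of 4) and Gata2 in colon day 12 replicate 2 (9.34 normalized reads, the lowest of 4, from 3 reads) were 2 of them. The other 4 were in CX3CR1-DTR replicate 1, which was highest of 6 in Hnf4a (6725 reads per 10000000 on genes) and in the reads per 1000 Epcam reads of Cdx1 (2003), Cdx2 (932) and Hnf4a (2143). The ratios share their denominator, which was the lowest Epcam count of that group (384 reads).

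The colon day 8 library outside the comparisons (replicate 1, 889451 reads on genes) held signal above the graft in 5 of the genes followed. It had 2603 normalized reads of Epcam, 886 of Cdx1, 658 of Hnf4a, 208 of Cdx2 and 161 of Gata6, each below the 3 colon day 8 libraries compared. Its Hnf4a and Gata6 lay within the ileum range of day 8 (418 to 1104 and 114 to 179). Its Cdx2 lay below that range (236 to 523). With this library, colon and ileum of day 8 were thus not separate for Hnf4a, Gata6 and Cdx2, while Cdx1 stayed above ileum. Its intestinal epithelium list took 1.55% of reads, against 3.03% to 3.20% in those 3, and its macrophage and leukocyte list 2.75%, against 0.139% to 0.583%. The part of these lists in its member values was not tested.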

How the results depend on the processing

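Depth limits Gata4, Gata5 and Gata2, which were at or under 3 reads in 10, 9 and 3 of the 10 colon libraries compared. Over all alternatives, results that answer a comparison kept their direction and call, or a like count of calls, in 1047 cases, while 11 counts moved, 9 values turned sign, 18 gained a call and 11 lost one. Single genes kept direction and call in 2491 cases, with 24 turned, 27 gained and 21 lost. Causes of the changes below were not tested. Against the graft, the calls of Cdx1, Cdx2, Hnf4a and Gata6 held under each alternative run. Of the others, Gata5 in ileum on day 4 was not called with the compared groups alone (adjusted p = 0.0507), Gata5 in colon on day 8 was called without the pair of experiment 1 (adjusted p = 0.0387), and Gata2 in colon on day 4 was lost without 3 libraries in turn. Scaling to totals moved the median log2 fold change of all genes from 0.24 to -0.10 for colon day 12 against graft and from -0.05 to 0.24 between colon and ileum on day 8, and no member changed call or direction.

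Members called between colon and ileum on day 4 numbered 2 with DESeq2, 2 with experiment as a block, 4 without the pair and 0 to 4 when libraries were left out in turn. Leaving out libraries gave 3 to 5 calls on day 8 (3 without colon day 8 replicate 4), 5 to 6 on day 12 and 0 to 3 for day 12 against day 4 in ileum, where DESeq2 gave 1. With Epcam as a covariate in the sorted libraries, 0 members were called on day 8 and 0 on day 12 (2 on each at an unadjusted p under 0.05), in a fit that called 3 and 5 of 11842 genes. Gata5 kept -3.44 and -5.07 there, against -4.49 and -6.05. Signs turned for Cdx2 (-0.95 on day 8 and -0.091 on day 12) and Hnf4a (-0.071 on day 4), and between day 4 and day 12 for Gata6 (0.029), Cdx1 (0.20) and Hnf4a (0.035) in colon and Cdx1 (0.066) in ileum.

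With experiment as a block, Cdx2 turned to 0.47 on day 4 between colon and ileum, and the ratio of Gata6 (-0.38) was called. The block changed no call other than this and those of Gata5 and Cdx1 on day 4. Without the pair, signs turned for Cdx2 between colon and ileum on day 4 (1.02), for Gata2 (-0.20) and Cdx1 (0.11) over time in ileum, and for the interaction of Cdx1 (-0.23) and Hnf4a (-0.086). Chosen after seeing the data, the fit without the pair and without a filter on low counts called 5 members on day 4, Gata4 included, and turned the same signs (Cdx2 1.07, Gata2 -0.20, Cdx1 0.12, and -0.24 and -0.094 for the interaction). Leaving out libraries, with signs that turned, gave 0 to 3.66 for Gata5 in colon of day 4 against the graft (0 without colon day 4 replicate 3), -0.54 to 0.48 for Cdx2 between segments on day 4, -1.65 to 2.02 for Gata5 over time in colon, and -0.75 to 1.48 (Gata2) and -3.37 to 0.36 (Gata5) for the interaction.

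Log2 ratios to the epithelium list in place of Epcam were called for Gata6 (-0.59) and Hnf4a (-0.39), and Cdx2 to Vil1 was not (-0.34). Gata6 was also called with 5 reads added (-0.48) and without the pair (-0.61), and ranged from -0.52 to -0.28 with libraries left out, while Hnf4a was called without the pair (-0.28) and ranged from -0.24 to -0.13.

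With Cdh1 in place of Epcam, r in colon was -0.44 for Gata2, 0.68 for Cdx1 and 0.58 for Hnf4a. With all 4 colon day 8 libraries, Gata6 (0.87) and Cdx2 (0.73) were called. In ileum, r was -0.77 for Gata5 with a pseudocount of 1, and without the pair 0.30 for Gata2, 0.51 for Gata4 and 0.54 for Gata5. In the 6 ileum libraries of experiment 2 alone, also chosen after seeing the data, r was -0.15 for Gata2, 0.62 for Gata4, 0.66 for Gata5, 0.74 for Gata6 and 0.82 for Cdx1, none of them called. Leaving out libraries gave r of -0.12 to 0.31 (Gata2) and 0.61 to 0.76 (Gata6) in colon, and of -0.78 to -0.54 (Gata2), -0.81 to -0.21 (Gata4), -0.70 to -0.39 (Gata5) and 0.56 to 0.87 (Gata6) in ileum with the pair included. The CX3CR1-DTR relations were not run with a library left out, since fewer than 6 libraries would remain.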
